A study of Mus musculus with 12 samples.

Results

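The genes described here encode 43 enzymes that build, extend or cap mucin-type O-glycans, out of 55304 gene symbols counted in each library. They were chosen by name and by enzyme family, and all 43 were found in the count tables. By their place in glycan assembly, 10 start the glycan, 6 make or assist its core, 8 extend it, 6 add fucose or a terminal hexosamine, 10 add sialic acid and 3 add sulfate. Colonic epithelial RNA was sequenced from 12 mice (C57BL/6, 6 weeks old), of which 4 belonged to each group. Ehf IKO mice were labelled as intestinal knockouts of Ehf, were given tamoxifen and carried the animal prefix EVCER. Control TMX mice were labelled wild-type, were given tamoxifen and came from the VilCreER line, in which the Villin promoter drives a tamoxifen-activated Cre recombinase in intestinal epithelium. Control OIL mice were labelled wild-type, carried the same EVCER prefix as Ehf IKO and were given sunflower oil. Ehf IKO and Control TMX therefore shared tamoxifen, Ehf IKO and Control OIL shared the animal prefix, and no group was a tamoxifen-treated EVCER animal without the knockout label. The Ehf protein is a transcription factor with an ETS domain that epithelia express.

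Mucin-type O-glycosylation begins in the Golgi, where a polypeptide GalNAc-transferase attaches GalNAc to serine or threonine. Galactose or GlcNAc is then added to form a core, the core is lengthened, and fucose, sialic acid, sulfate or a terminal hexosamine closes the chain. In the colon these glycans make up most of the mass of the gel-forming mucin Muc2 that goblet cells secrete, and they also coat the membrane mucins of absorptive cells. Several enzymes in the set, among them Fut8, St6gal1 and B3gnt5, are known mainly for work on N-glycans or glycolipids.

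The libraries held 7421411 to 10344161 counted reads, and mitochondrial genes took 10.7% to 26.3% of them. Levels are given as CPM (counts scaled to a common library total) after TMM scaling of library sizes, and as CPM per kilobase of exon where genes are compared with each other. Differences are log2 fold changes ± SE from 1 edgeR quasi-likelihood fit of all 12 libraries, adjusted over 15743 genes and called at an adjusted p under 0.05. The words rose and fell are used for called genes. Each comparison with both controls refers to their mean. The epithelial markers Epcam (839.7 to 1049 CPM), Cdh1 (1019 to 1267 CPM) and Vil1 (621.1 to 911.7 CPM) were abundant in every library. Ehf was counted at 341 ± 30.1 CPM in Ehf IKO, 345 ± 21.0 CPM in Control TMX and 428 ± 46.4 CPM in Control OIL (SD, n = 4 each). Which exons were deleted is not stated in the labels, and the counts cover the whole gene, so they are no check of the knockout. In each group replicates 1 and 2 were female and replicates 3 and 4 male by Xist and Y-linked genes. In bulk RNA of this kind, fewer cells of a type and less RNA per cell cannot be told apart.

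Of the 39 genes with enough counts to be tested, 4 fell in Ehf IKO against both controls and none rose. The 4 were St6galnac6, A4gnt, B4galt4 and Galnt12, which belong to 4 different steps of glycan assembly. They made up 10.3% of those tested, while 0.858% of all genes tested fell and 0.858% rose (1.72% in all). The set was drawn up with earlier results of these libraries known, so that share is a description. At an unadjusted p under 0.05, 11 were lower and 2 were higher, and 1825 of all 15743 genes passed that threshold. DESeq2 called 6 lower and 1 higher, and limma-voom called 3 lower and 0 higher. Over all genes, too, DESeq2 called more than edgeR in each direction and limma-voom fewer. Over the set, 24 of 39 had a log2 fold change below 0 with a median of -0.12, against 48.1% of all genes and a median of 0.01. Against Control TMX alone 2 genes fell and 0 rose (0.47% and 0.33% of all genes, 0.8% in all), with 10 lower and 4 higher at an unadjusted p under 0.05 (1869 of all genes). There, DESeq2 called 4 lower and 0 higher (181 and 124 of all genes) and limma-voom 1 lower and 0 higher (59 and 47). Against Control OIL alone 5 fell and 0 rose (0.762% and 0.921% of all genes, 1.68% in all), with 10 lower and 5 higher at an unadjusted p under 0.05 (1876 of all genes). For that comparison DESeq2 called 6 lower and 1 higher (218 and 316 of all genes), and limma-voom 5 lower and 0 higher (100 and 122). Log2 fold changes below 0 were found for 21 of 39 against Control TMX and 23 of 39 against Control OIL, where 47.4% and 51.3% of all genes had one. All these comparisons use the same Ehf IKO libraries, and the one with both controls uses every control library.

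**Figure D1:**
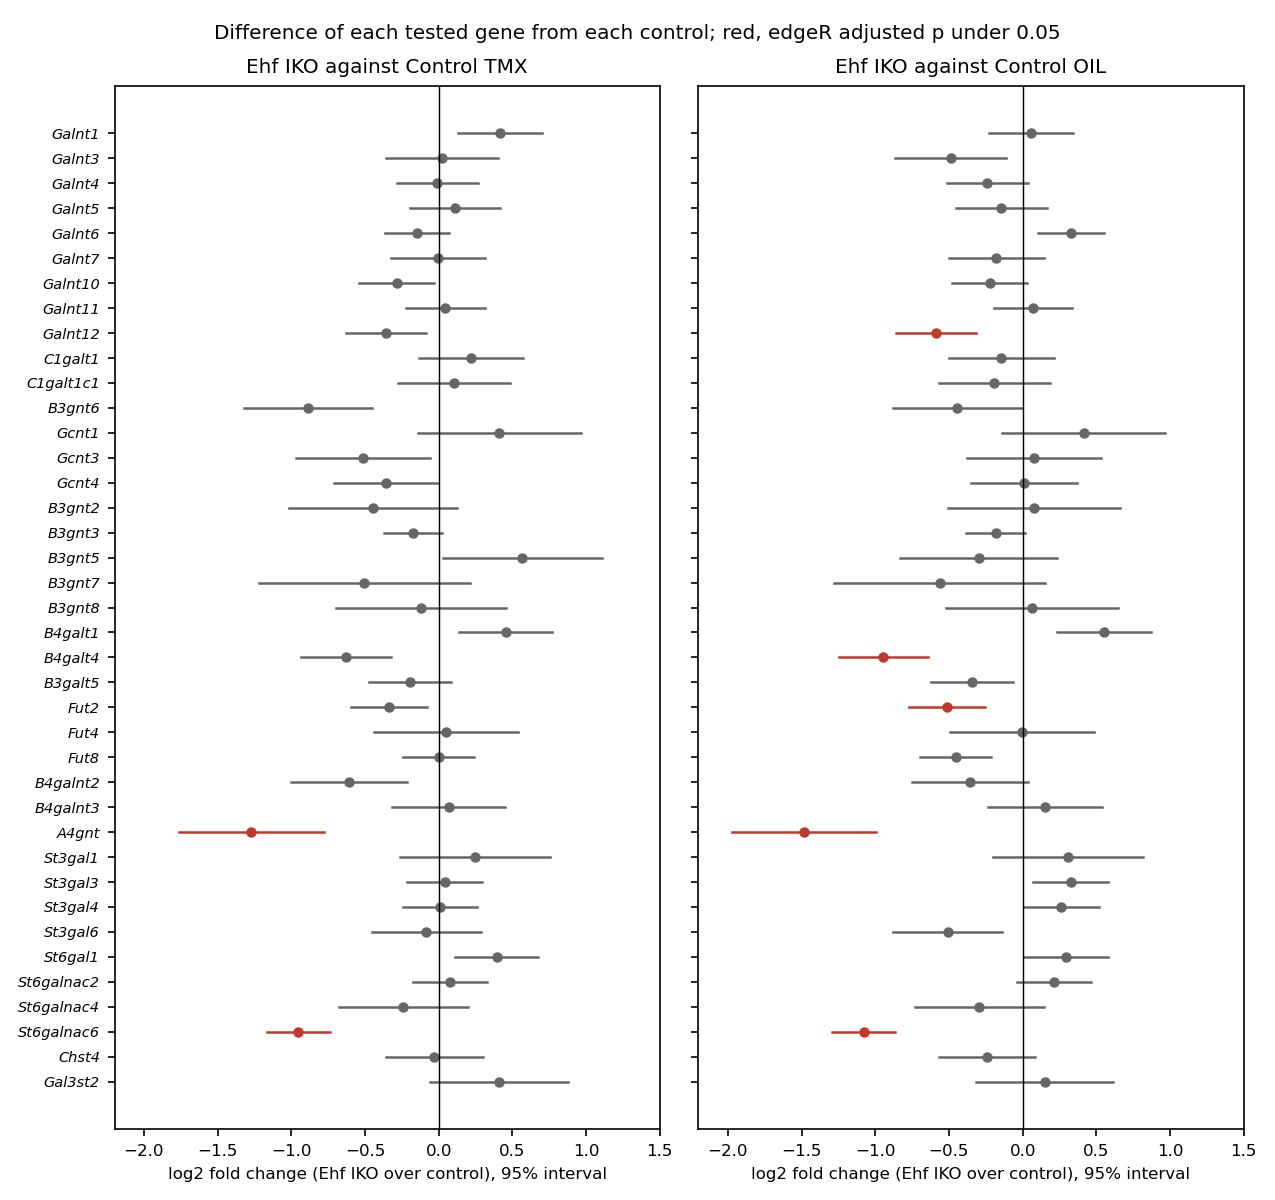
Log2 fold change (horizontal axis) of the 39 tested glycosylation genes in Ehf IKO against Control TMX and against Control OIL, grouped by step of glycan assembly, with 95% confidence intervals as bars. St6galnac6 and A4gnt lie furthest to the left in both comparisons, and most other intervals cross 0.

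Before the values, the bases upstream of 2 of the genes that fell are shown because ETS-family factors bind DNA at a GGAA core. A4gnt and B4galt4 are shown since the 250 bases before their RefSeq start (GRCm38.p6) hold no annotated exon. The window of A4gnt is chr9:99612252-99612501 and that of B4galt4 is chr16:38742009-38742258, both on the plus strand. Capitals mark GGAA and its reverse complement TTCC.
A4gnt: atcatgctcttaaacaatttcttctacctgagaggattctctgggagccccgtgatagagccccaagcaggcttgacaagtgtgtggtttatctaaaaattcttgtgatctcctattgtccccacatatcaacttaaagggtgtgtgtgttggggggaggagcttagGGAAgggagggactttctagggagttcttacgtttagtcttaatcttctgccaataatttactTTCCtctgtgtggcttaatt
B4galt4: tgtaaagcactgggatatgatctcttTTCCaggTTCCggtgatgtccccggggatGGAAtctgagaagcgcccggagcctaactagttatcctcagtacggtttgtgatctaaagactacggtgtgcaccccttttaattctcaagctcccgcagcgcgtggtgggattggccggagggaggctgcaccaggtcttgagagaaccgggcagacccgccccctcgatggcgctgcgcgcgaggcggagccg
GGAA was found on either strand 2 times in the A4gnt window and 3 times in the B4galt4 window. Such a short word is common: 93.4% of the 32851 mouse promoter windows of this length hold it, and so do 97.8% of the 45 windows of the 32 glycosylation genes with an entry. The longer word CGGAAG, which includes GGAA, was found on either strand in neither window, in 13.6% of all windows and in 8.89% of those of the set. The window before St6galnac6 (chr2:32599459-32599708, plus strand) holds GGAA 3 times and CGGAAG 0 times. Of its bases, 240 lie in an exon of the neighbouring gene St6galnac4, so its letters are not printed. Galnt12 and Fut2 had no entry in the promoter table.

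St6galnac6 encodes a sialyltransferase known for adding a second sialic acid to make disialylated glycans, largely on glycolipids. It lies on chromosome 2, 32599709 to 32620806, plus strand (ENSMUSG00000026811, GRCm38). It was counted at 236.2, 224.1, 234.4 and 242.6 CPM in Ehf IKO, against 494.7, 510.8, 402.6 and 406.1 CPM in Control TMX and 478.1, 483.6, 517.7 and 501.3 CPM in Control OIL. Every Ehf IKO library was below every control library, by a wide gap. The log2 fold change was -1.02 ± 0.09 against both controls (edgeR adjusted p = 2.64e-05), which is 2.02-fold lower. It was -0.95 ± 0.10 against Control TMX (edgeR adjusted p = 0.00034) and -1.08 ± 0.10 against Control OIL (edgeR adjusted p = 4.29e-05). The fall was called in each of the 24 alternatives run against both controls, with log2 fold changes of -1.05 to -0.98. Among the 43 genes, its mean level ranked 6 in Ehf IKO (48.7 CPM per kilobase), 2 in Control TMX (94.2) and 2 in Control OIL (102.8).

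A4gnt encodes the enzyme that places a terminal alpha-linked GlcNAc on O-glycans, known from the gland mucins of the stomach. The gene lies on chromosome 9, 99612502 to 99622367, plus strand (ENSMUSG00000037953). Its level was low, at 6.06, 5.80, 5.32 and 4.70 CPM in Ehf IKO, against 7.92, 13.2, 14.7 and 16.6 CPM in Control TMX and 18.4, 18.5, 10.45 and 14.0 CPM in Control OIL. The groups did not overlap, although Control TMX replicate 1 came close to the Ehf IKO libraries. A4gnt had the largest fall of the set, with a log2 fold change of -1.38 ± 0.21 against both controls (edgeR adjusted p = 0.00265), or 2.599-fold lower. It fell by 1.27 ± 0.23 on the log2 scale against Control TMX (edgeR adjusted p = 0.0153) and by 1.48 ± 0.23 against Control OIL (edgeR adjusted p = 0.00451). The call against Control TMX was lost without Ehf IKO replicate 3 (edgeR adjusted p = 0.0615), without Control TMX replicate 2 (0.0511) or without Control TMX replicate 3 (0.0535), and in limma-voom (adjusted p = 0.0514). Muc6, the gastric gland mucin on which this glycan is best known, was counted at 7.10 ± 2.70 CPM in Ehf IKO, 7.36 ± 0.58 CPM in Control TMX and 6.57 ± 0.88 CPM in Control OIL (SD, n = 4 each). Its log2 fold change was 0.03 ± 0.20 against both controls (edgeR adjusted p = 0.982).

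B4galt4 encodes a galactosyltransferase that extends chains and favours GlcNAc carrying sulfate. It lies on chromosome 16, 38742264 to 38769049, plus strand (ENSMUSG00000022793). Its levels were 18.8, 21.5, 17.6 and 25.5 CPM in Ehf IKO, against 30.4, 30.2, 31.9 and 36.3 CPM in Control TMX and 50.9, 36.2, 36.1 and 37.6 CPM in Control OIL. All 4 Ehf IKO libraries were below all 8 control libraries, and Control OIL replicate 1 stood above the rest of its group. The log2 fold change was -0.79 ± 0.13 against both controls (edgeR adjusted p = 0.00427) and -0.95 ± 0.14 against Control OIL (edgeR adjusted p = 0.00358). Against Control TMX it was -0.63 ± 0.14 and was not called (edgeR adjusted p = 0.0536). Of 25 alternatives to that fit, 8 called it, among them DESeq2 (adjusted p = 0.00827), the compared groups alone (edgeR adjusted p = 0.0494) and the fits without Ehf IKO replicate 4 (0.0184) or Control OIL replicate 1 (0.0285). The gap between these 2 comparisons is the difference between the controls, -0.32 ± 0.14 in Control TMX against Control OIL, which was not called either (edgeR adjusted p = 0.36).

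Galnt12, one of the GalNAc-transferases that start the glycan, lies on chromosome 4, 47091909 to 47123070, plus strand (ENSMUSG00000039774). Levels of Galnt12 were 72.2, 64.5, 78.6 and 81.9 CPM in Ehf IKO, against 76.7, 93.1, 100.5 and 110.8 CPM in Control TMX and 126.9, 123.3, 97.96 and 99.2 CPM in Control OIL. Ehf IKO overlapped Control TMX at the low value of Control TMX replicate 1 and did not overlap Control OIL. The log2 fold change was -0.47 ± 0.11 against both controls (edgeR adjusted p = 0.0451) and -0.59 ± 0.13 against Control OIL (edgeR adjusted p = 0.0288), while the -0.36 ± 0.13 against Control TMX was not called (edgeR adjusted p = 0.265). The call against both controls held in 12 of 24 alternatives. It was lost in limma-voom (adjusted p = 0.0565) and without any 1 of Ehf IKO replicates 1 to 3 (edgeR adjusted p = 0.146, 0.173 and 0.111), Control TMX replicates 2 to 4 (0.0727, 0.0891 and 0.0708) or Control OIL replicates 1 and 2 (0.0685 and 0.0858). The call against Control OIL was lost without Ehf IKO replicate 1, 2 or 3 (0.0917, 0.0943 and 0.0706) and without Control OIL replicate 1 or 2 (0.0788 and 0.0767).

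Fut2 encodes the fucosyltransferase that caps terminal galactose and makes H-type antigens on colonic mucin. It lies on chromosome 7, 45648591 to 45666394, minus strand (ENSMUSG00000055978), and fell against Control OIL alone. Fut2 was counted at 164.6, 131.1, 148.3 and 146.4 CPM in Ehf IKO, against 212.3, 218.5, 158.6 and 157.3 CPM in Control TMX and 224.1, 215.2, 196.3 and 207.4 CPM in Control OIL. Control TMX replicates 3 and 4 lay within the Ehf IKO range, whereas every Control OIL library was above it. The log2 fold change was -0.51 ± 0.12 against Control OIL (edgeR adjusted p = 0.043), -0.34 ± 0.12 against Control TMX (edgeR adjusted p = 0.27) and -0.43 ± 0.11 against both controls (edgeR adjusted p = 0.0574). In Control TMX against Control OIL the difference was -0.18 ± 0.12 (edgeR adjusted p = 0.57). The call was lost without Ehf IKO replicate 1, 2 or 3 (0.07, 0.141 and 0.121) and without any 1 of the 4 Control OIL libraries (adjusted p = 0.0742 to 0.104).

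**Figure D2:**
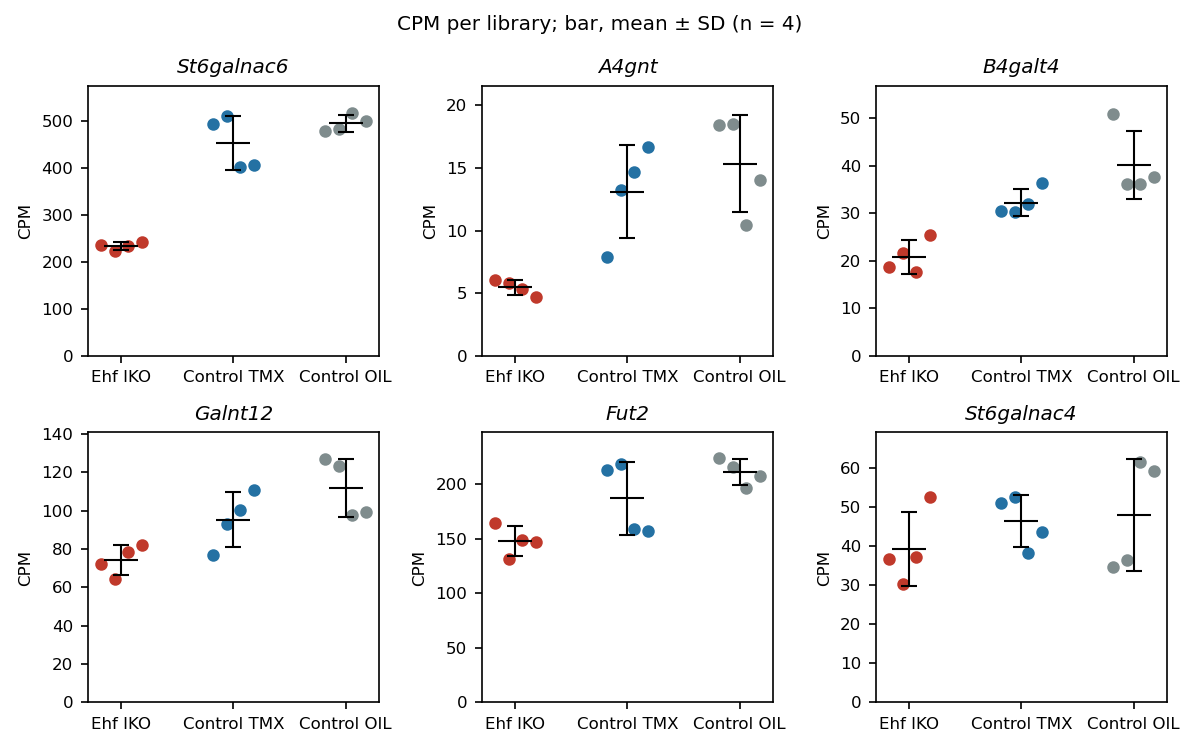
CPM in each of the 12 libraries (points; long bars are group means and error bars are SD, n = 4) for the 5 genes that fell in Ehf IKO and for St6galnac4, the neighbour of St6galnac6, with Ehf IKO at the left of each panel. St6galnac6, A4gnt and B4galt4 show no overlap between Ehf IKO and the controls, while Galnt12, Fut2 and St6galnac4 overlap with Control TMX.

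Markers of stromal cells differed between the groups as well. All 10 genes of a fibroblast and matrix list (Col1a1, Col1a2, Col3a1, Col6a1, Col6a2, Dcn, Lum, Pdgfra, Dpt and Vim) had a log2 fold change above 0 against both controls, although edgeR and limma-voom called none there (5 at an unadjusted p under 0.05, 3 by DESeq2). Against Control OIL edgeR and limma-voom each called 2 higher, which in edgeR were Col1a2 (1.10 ± 0.25, adjusted p = 0.0445) and Col3a1 (1.05 ± 0.22, adjusted p = 0.0318), and 7 passed an unadjusted p under 0.05. Against Control TMX alone all 10 were higher, but 0 passed an unadjusted p under 0.05. In Control TMX against Control OIL all 10 were higher too (0 called by edgeR, 3 at an unadjusted p under 0.05). Of 7 smooth muscle genes tested, 6 were higher against both controls and 6 against Control OIL, whereas 5 were lower against Control TMX. None of the 7 was called there by edgeR. The summed level of the fibroblast and matrix list was 457 to 1097 CPM in Ehf IKO, 464.1 to 789.2 CPM in Control TMX and 341.2 to 462.7 CPM in Control OIL. With the score of this list as a covariate against both controls, St6galnac6 stayed called (-0.98 ± 0.12, edgeR adjusted p = 0.00212). A4gnt (-1.36 ± 0.28, edgeR adjusted p = 0.0569), B4galt4 (-0.75 ± 0.16, adjusted p = 0.0821) and Galnt12 (-0.53 ± 0.15, adjusted p = 0.218) did not, with fold changes close to those without the covariate and larger errors. Calls over all genes were also far fewer with this score, in both directions, so the lost calls are not particular to these genes. Fut2 against Control OIL was at -0.50 ± 0.18 with the score (edgeR adjusted p = 0.519). Of 14 absorptive colonocyte genes 13 were higher against both controls, as were 8174 of all 15743 genes. None was called by edgeR or limma-voom there (5 at an unadjusted p under 0.05, 1 by DESeq2). Against Control TMX alone 9 were higher (0 called by edgeR), and against Control OIL alone 13 were (1 called). In Control TMX against Control OIL 12 were higher (0 called by edgeR, 5 at an unadjusted p under 0.05). The summed level of this list was 4834 to 9258 CPM in Ehf IKO, 6435 to 7827 CPM in Control TMX and 2927 to 6530 CPM in Control OIL. With the score of that list as a covariate 7 genes of the set fell against both controls (170 of all genes). Galnt12 was not among the 7 (-0.43 ± 0.13, edgeR adjusted p = 0.099). The part of these cells in the falls was not tested.

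Each of the 5 genes was lower in Ehf IKO within each sex, with 2 libraries a group, and no test was run within a sex. The genes were chosen for their falls in these same libraries, so this is a description and no separate support. For St6galnac6, A4gnt and B4galt4 it follows from the lack of overlap between Ehf IKO and the controls. For St6galnac6 the difference in mean log2 level was -1.13 from Control TMX and -1.06 from Control OIL in females, and -0.76 and -1.09 in males. For Fut2 it was -0.55 and -0.58 in females, against -0.10 and -0.45 in males. With sex as a term in the fit, 7 genes of the set fell and 1 rose against both controls (144 and 133 of all genes). The additional falls were B3gnt6 (edgeR adjusted p = 0.0496), Fut2 (0.0389) and B4galnt2 (0.0374), and the rise was B4galt1 (0.0417).

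Among the GalNAc-transferases that start the glycan, Galnt12 averaged 32.5 ± 3.37 CPM per kilobase in Ehf IKO, 41.6 ± 6.27 in Control TMX and 48.9 ± 6.72 in Control OIL (SD, n = 4 each). It had the highest mean of the family in both control groups, and came after Galnt7 (36.7 ± 1.72) and Galnt6 (34.8 ± 2.10) in Ehf IKO, although these neighbours lie within each other's spread. None of the 8 tested family members other than Galnt12 was called in a comparison of Ehf IKO by edgeR, DESeq2 or limma-voom. Their log2 fold changes against both controls ran from -0.25 for Galnt10, the 1 of them with an unadjusted p under 0.05 there, to 0.23 for Galnt1. Galnt4 (-0.12), Galnt5 (-0.02), Galnt6 (0.09), Galnt7 (-0.09) and Galnt11 (0.06) stayed nearer to 0. Galnt3 was lower in every Ehf IKO library than in every Control OIL library (39.2 to 47.3 against 50.7 to 78.5 CPM), and overlapped Control TMX (30.9 to 58.7 CPM). Galnt2 had 0, 2, 2 and 2 counts in Ehf IKO, 2, 3, 5 and 8 counts in Control TMX and 2, 4, 5 and 3 counts in Control OIL, and did not pass the filter on low counts. Of its exon bases, 90.005% also belong to Gm20388 in the annotation. Reads that fall in more than 1 gene were left out of the counts, so Galnt2 is not measured by these values.

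The cores are made by C1galt1 with its chaperone C1galt1c1 (core 1), B3gnt6 (core 3) and the Gcnt branching enzymes (core 2, and for Gcnt3 also core 4). None of these 6 genes was called in any comparison of Ehf IKO by edgeR or limma-voom, and DESeq2 called B3gnt6 lower against both controls (adjusted p = 0.0248) and against Control TMX (0.00625). At an unadjusted p under 0.05, 1 was lower and 0 higher against both controls, 3 and 0 against Control TMX, and 1 and 0 against Control OIL. Gcnt3, the most abundant of them per kilobase, was at 304, 322.7, 251.3 and 176 CPM in Ehf IKO, against 388.8, 421.6, 358.9 and 334.3 CPM in Control TMX and 273.6, 340.3, 158.5 and 226.7 CPM in Control OIL. All Ehf IKO libraries were below all Control TMX libraries, and they spanned much of the Control OIL range. The log2 fold change of Gcnt3 was -0.51 ± 0.21 against Control TMX (edgeR adjusted p = 0.357) and 0.08 ± 0.21 against Control OIL (edgeR adjusted p = 0.947). B3gnt6, whose core 3 chains are typical of the colon, was at 12.3 to 14.8 CPM in Ehf IKO, 22.4 to 28.9 CPM in Control TMX and 10.4 to 24.3 CPM in Control OIL. Its log2 fold change was -0.89 ± 0.20 against Control TMX (edgeR adjusted p = 0.0568) and -0.67 ± 0.18 against both controls (edgeR adjusted p = 0.0885), just outside the call in each. The lowest B3gnt6 value of all 12 libraries was in Control OIL replicate 3. Without that library B3gnt6 passed the call against Control TMX (edgeR adjusted p = 0.0112) and against both controls (0.0125). C1galt1 averaged 195 ± 15.7 CPM in Ehf IKO, 168 ± 36.7 CPM in Control TMX and 216 ± 50.4 CPM in Control OIL (SD, n = 4 each). The log2 fold change against both controls was 0.04 for C1galt1, -0.05 for C1galt1c1, 0.41 for Gcnt1 and -0.17 for Gcnt4. Gcnt1 spread from 27.9 to 70.0 CPM within Ehf IKO, against 26.1 to 44.9 CPM in Control TMX and 27.0 to 47.9 CPM in Control OIL.

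Of the 8 extension genes, B4galt4 fell and B4galt1 was the nearest to a rise. B4galt1, a general galactosyltransferase that builds N-acetyllactosamine, averaged 168 ± 22.4 CPM in Ehf IKO, 123 ± 26.7 CPM in Control TMX and 115 ± 14.6 CPM in Control OIL (SD, n = 4 each). Its log2 fold change was 0.50 ± 0.13 against both controls (edgeR adjusted p = 0.0593), 0.45 ± 0.15 against Control TMX (edgeR adjusted p = 0.22) and 0.55 ± 0.15 against Control OIL (edgeR adjusted p = 0.0805). Ehf IKO lay above Control OIL in every library and overlapped Control TMX. Thus B4galt1 and B4galt4, enzymes of the same family, had fold changes of opposite sign, although only that of B4galt4 was called. DESeq2 called B4galt1 higher against both controls (adjusted p = 0.0163), and so did edgeR without Ehf IKO replicate 4 (adjusted p = 0.0199) or without Control TMX replicate 1 (adjusted p = 0.0432).

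B3galt5, which makes type 1 chains, was the most abundant extension enzyme per kilobase averaged over the libraries. It was counted at 369.3, 408.2, 363.1 and 306 CPM in Ehf IKO, against 455.7, 398.5, 438 and 363 CPM in Control TMX and 575.2, 430, 392.2 and 438.6 CPM in Control OIL. The groups overlapped, and the log2 fold change was -0.27 ± 0.11 against both controls (edgeR adjusted p = 0.355). B3gnt7, known for chains of the keratan sulfate type, varied widely within groups, at 115 to 321 CPM in Ehf IKO, 192 to 364 CPM in Control TMX and 212 to 367 CPM in Control OIL. B3gnt3, which extends core 1, averaged 150.8 ± 4.51 CPM in Ehf IKO, 170 ± 16.2 CPM in Control TMX and 171 ± 12.8 CPM in Control OIL (SD, n = 4 each), with no call. B3gnt5, known for glycolipids, was at 46.5 to 94.7 CPM in Ehf IKO, 30.3 to 53.9 CPM in Control TMX and 55.2 to 85.8 CPM in Control OIL. B3gnt2 and B3gnt8, makers of polylactosamine, averaged 3.24 to 5.44 CPM over the groups. Gm28048 shares 58.589% of the exon bases of B3gnt2, and Bckdha shares 18.088% of those of B3gnt8. Reads that fall in more than 1 gene were left out, so these low values do not fully measure either gene. Against both controls, the log2 fold change was -0.53 for B3gnt7, -0.18 for B3gnt3, 0.13 for B3gnt5, -0.18 for B3gnt2 and -0.03 for B3gnt8.

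Among the terminal enzymes, B4galnt2 makes the Sda antigen and had the highest level per kilobase of all 43 genes in each group. It was counted at 186.6, 208.8, 152.9 and 121.2 CPM in Ehf IKO, against 282.5, 246.9, 238 and 253.5 CPM in Control TMX and 272.9, 254, 152.5 and 178 CPM in Control OIL. Ehf IKO was below Control TMX in every library and overlapped Control OIL, whose replicates 3 and 4 were low. No comparison called it: the log2 fold change was -0.48 ± 0.16 against both controls (edgeR adjusted p = 0.198) and -0.61 ± 0.19 against Control TMX (edgeR adjusted p = 0.182). Of its exon bases, 15.273% are shared with the antisense gene Gm11534, and the counts did not use strand. Fut8, the core fucosyltransferase of N-glycans, averaged 98.01 ± 12.6 CPM in Ehf IKO, 97.9 ± 8.96 CPM in Control TMX and 134 ± 14.6 CPM in Control OIL (SD, n = 4 each). It was low in both tamoxifen-treated groups, with log2 fold changes of -0.45 ± 0.11 in Ehf IKO against Control OIL (edgeR adjusted p = 0.0564) and 0.00 in Ehf IKO against Control TMX (edgeR adjusted p = 0.998). Fut8 in Ehf IKO was called lower than in Control OIL by DESeq2 (adjusted p = 0.0126) and by edgeR with sex as a term (adjusted p = 0.0433). In Control TMX against Control OIL its log2 fold change was -0.45 ± 0.11 as well (edgeR adjusted p = 0.15). DESeq2 called it lower there too (adjusted p = 0.0266). Fut4, which makes Lewis x type structures, and B4galnt3, which makes LacdiNAc, had log2 fold changes of 0.02 and 0.11 against both controls.

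St6galnac6 was the 1 gene of 8 tested sialyltransferases that fell, and 5 of the other 7 had a log2 fold change above 0 against both controls. St6galnac4 lies 10 bases upstream of St6galnac6 on the same strand and also sialylates GalNAc. It was counted at 36.8, 30.2, 37.4 and 52.5 CPM in Ehf IKO, against 51.1, 52.5, 38.3 and 43.8 CPM in Control TMX and 34.7, 36.5, 61.5 and 59.3 CPM in Control OIL. The groups overlapped, with a log2 fold change of -0.27 ± 0.18 against both controls (edgeR adjusted p = 0.654, 95% interval -0.65 to 0.12). The interval of St6galnac6, -1.21 to -0.82, does not overlap it. St6galnac2, which sialylates the first GalNAc, was at 57.4, 53.6, 53.4 and 58.4 CPM in Ehf IKO, against 49.6, 56.2, 56.5 and 49.0 CPM in Control TMX and 51, 56.4, 36.6 and 48.3 CPM in Control OIL. Its log2 fold change was 0.14 ± 0.10 (edgeR adjusted p = 0.671). St6galnac1, the sialyl-Tn synthase 70156 bases from it, had 3 counts in all 12 libraries, which were 1, 1, 0 and 0 in Ehf IKO, none in Control TMX and 0, 0, 0 and 1 in Control OIL. St6galnac3 had 1, 13, 1 and 1 counts in Ehf IKO, 2, 5, 7 and 1 counts in Control TMX and 4, 3, 3 and 6 counts in Control OIL. These 2 genes did not pass the filter on low counts. St3gal4, the most abundant per kilobase of the enzymes that sialylate galactose, averaged 223 ± 7.89 CPM in Ehf IKO, 222 ± 29.3 CPM in Control TMX and 186 ± 27.4 CPM in Control OIL (SD, n = 4 each). St6gal1 was at 63.1 to 83.4 CPM in Ehf IKO and 48.6 to 58.2 CPM in Control TMX, which did not overlap, with a log2 fold change of 0.39 that was not called (edgeR adjusted p = 0.241). St3gal1 and St3gal3, which cap galactose, had log2 fold changes of 0.28 and 0.18 against both controls. St3gal6, of the same group, had -0.30, and 25.972% of its exon bases are shared with Dcbld2.

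Of the 3 sulfotransferases, the 2 that were tested had no call in a comparison of Ehf IKO by edgeR, DESeq2 or limma-voom, and 0 had an unadjusted p under 0.05. Chst4, which puts sulfate on GlcNAc, had 29.1, 31.5, 32.2 and 48.1 CPM in Ehf IKO, against 28.3, 40.3, 33.6 and 41.3 CPM in Control TMX and 41.6, 39.3, 40.9 and 44.6 CPM in Control OIL. Ehf IKO replicates 1 to 3 were below Control OIL and replicate 4 above it, and the log2 fold change was -0.14 ± 0.13 against both controls (edgeR adjusted p = 0.802). Chst5 had 3, 0, 1 and 5 counts in Ehf IKO, 0, 1, 0 and 0 counts in Control TMX and 1, 0, 1 and 1 counts in Control OIL, and did not pass the filter on low counts. Gal3st2, which sulfates galactose, was at 7.18 to 11.7 CPM in Ehf IKO, 5.98 to 7.05 CPM in Control TMX and 6.20 to 11.1 CPM in Control OIL. It has close paralogs, Gal3st2b and Gal3st2c, so its uniquely mapped counts are uncertain.

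**Figure D3:**
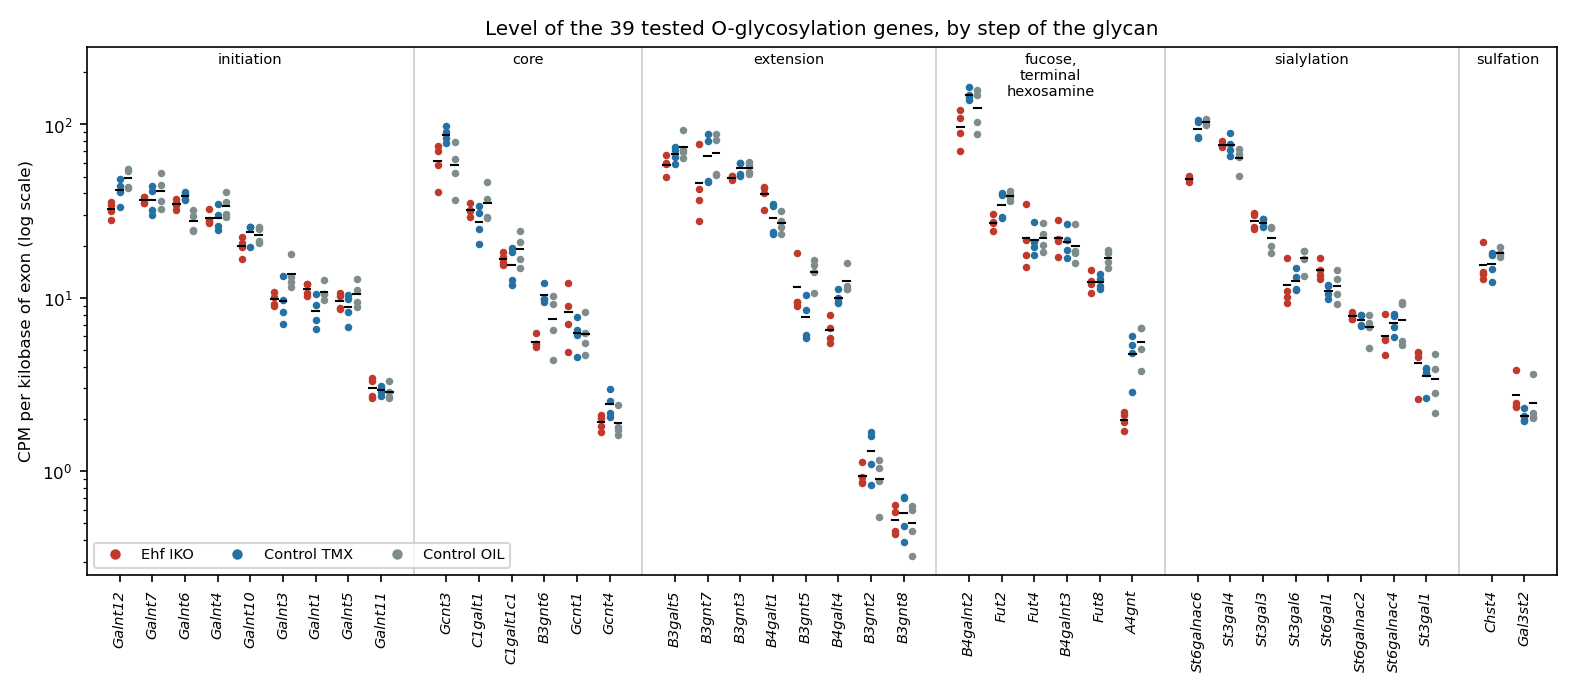
Level in CPM per kilobase of exon (logarithmic axis) of the 39 tested glycosylation genes in Ehf IKO, Control TMX and Control OIL, ordered by step of glycan assembly. Points are libraries and bars are group means. B4galnt2 is highest in each group, and St6galnac6 has an Ehf IKO mean of 48.7, below its Control TMX (94.2) and Control OIL (102.8) means.

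Summed over all 43 genes, the level was 924 ± 23.2 CPM per kilobase in Ehf IKO, 1086 ± 45 in Control TMX and 1079 ± 67.3 in Control OIL (SD, n = 4 each). The sums ran from 893.4 to 949.6 in Ehf IKO, from 1044 to 1126 in Control TMX and from 1013 to 1156 in Control OIL, without overlap between Ehf IKO and the controls. Since 1 gene carries much of such a sum, St6galnac6 and B4galnt2 were left out in turn. Without St6galnac6 the sum was 875.5 ± 22.6 in Ehf IKO, 991.4 ± 33.2 in Control TMX and 976.4 ± 70.9 in Control OIL, and without B4galnt2 as well the Ehf IKO range (755.9 to 828.8) overlapped that of Control TMX (817.6 to 876.4) and of Control OIL (817.3 to 898.5). Without both genes the means were 778.3 in Ehf IKO, 843.2 in Control TMX and 852 in Control OIL. The overlap came from Ehf IKO replicate 4 (828.8). Replicates 1 to 3 (771.1, 757.4 and 755.9) were below every control library. Among the steps, sialylation summed to 197 ± 8.71 in Ehf IKO, 239 ± 19.8 in Control TMX and 235 ± 12.1 in Control OIL. Without St6galnac6 those sums were 149 ± 7.17, 145 ± 8.95 and 132 ± 9.66 in the same groups, so the difference lay in that gene. The fucose and terminal hexosamine step summed to 183 ± 9.66 in Ehf IKO, 242 ± 19.0 in Control TMX and 228 ± 33.0 in Control OIL, and without B4galnt2 its ranges overlapped. The initiation, extension and sulfation sums overlapped between Ehf IKO and each control group, and the core sum was lower than Control TMX in every library (105.7 to 144.6 against 146.6 to 152) and overlapped Control OIL (94.97 to 155.4). No test was made on the sums.

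**Figure D4:**
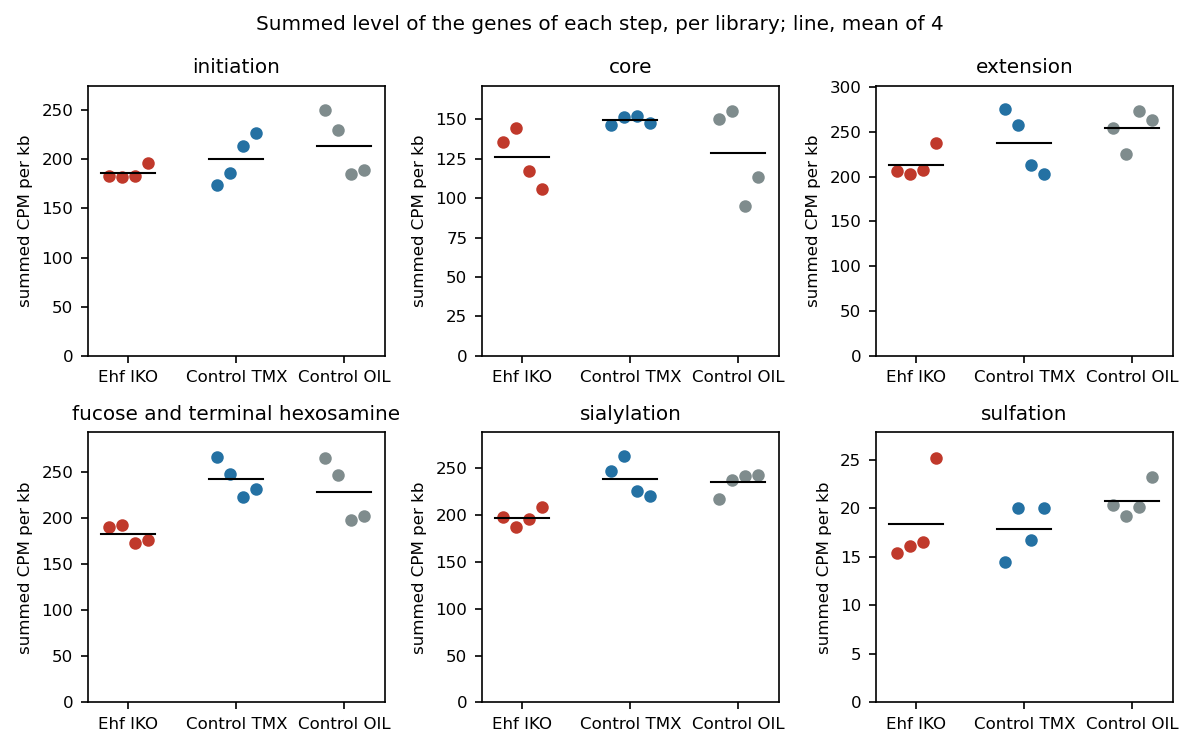
Summed level in CPM per kilobase of exon of the genes of each step in each of the 12 libraries (points; horizontal bars are group means), with Ehf IKO at the left of each panel. Ehf IKO libraries lie below all control libraries for sialylation (187.4 to 208.6) and for fucose and terminal hexosamine (173.3 to 192.2), and overlap those of at least 1 control group in the other steps.

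Within Ehf IKO, replicate 4 was the highest or the lowest of the 4 libraries for 31 of the 39 tested genes, and replicate 3 for 9. The control groups had such libraries too, with 28 for Control OIL replicate 3 and 26 for Control TMX replicate 4. Without Ehf IKO replicate 4 the set had 5 falls and 1 rise against both controls (212 and 310 over all genes). For the 35 genes not called against both controls, the 95% interval of the fold change lay within 2-fold for 33 (B3gnt6 and B3gnt7 were the exceptions) and within 1.5-fold for 21. Against Control TMX this held for 32 and 19 of 37, and against Control OIL for 33 and 19 of 34.

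Of the 39 tested genes, 3 (St6galnac6, A4gnt and B4galt4) were lower in every Ehf IKO library than in every control library, and 1.23% of all genes tested were. None was higher in every Ehf IKO library than in every control library, against 1.17% of all genes. Set against Control TMX alone, 6 were lower in every library (B3gnt6, Gcnt3 and B4galnt2 besides those 3) and 2 were higher (St6gal1 and Gal3st2), against 3.87% and 3.32% of all genes. Set against Control OIL alone, 8 were lower (Galnt3, Galnt12, B3gnt3, Fut2 and Fut8 besides those 3) and 2 were higher (B4galt1 and St3gal4), against 3.29% and 3.25% of all genes. Between the controls, 0 genes of the set were called in Control TMX against Control OIL by edgeR, against 0.0826% of all genes (0.0445% lower and 0.0381% higher). At an unadjusted p under 0.05, 7 were lower and 6 higher in Control TMX, with 2028 of all genes past that threshold. These 13 of 39 are as many as in Ehf IKO against both controls. DESeq2 called 2 lower and 1 higher in that comparison (75 and 122 of all genes), and limma-voom called 0 in each direction (7 and 1 of all genes). Galnt6 and St3gal3 were higher and B3gnt5 and Fut8 lower in every Control TMX library than in every Control OIL library, as were 3.68% and 3.2% of all genes.

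Enzymes and transporters that supply the sugar and sulfate donors were examined as a list of 28 genes, of which 26 were tested. Against both controls 2 fell and 0 rose, where 0.858% of all genes fell and 0.858% rose. Of the 26, 19 were lower with a median log2 fold change of -0.12, against 48.1% of all genes and a median of 0.01. At an unadjusted p under 0.05, 8 were lower and 1 higher. DESeq2 called 5 lower and 0 higher, and limma-voom 2 lower and 0 higher. Gfpt1, the first enzyme of the hexosamine pathway that leads to UDP-GlcNAc, averaged 690 ± 31.2 CPM in Ehf IKO, 851 ± 31.1 CPM in Control TMX and 994 ± 67.8 CPM in Control OIL (SD, n = 4 each). Its log2 fold change was -0.41 ± 0.08 (edgeR adjusted p = 0.0169). Uap1, which completes UDP-GlcNAc, averaged 163 ± 7.95 CPM in Ehf IKO, 205 ± 7.79 CPM in Control TMX and 214 ± 26.1 CPM in Control OIL, with a log2 fold change of -0.37 ± 0.09 (edgeR adjusted p = 0.045). Against Control TMX no donor gene was called by edgeR in either direction (4 lower and 0 higher at an unadjusted p under 0.05; DESeq2 called 3 lower and 0 higher and limma-voom 0). Against Control OIL 3 fell and 0 rose (0.762% and 0.921% of all genes). These were Gfpt1, the sialic acid activating enzyme Cmas (-0.45 ± 0.10, edgeR adjusted p = 0.0399) and the UDP-GlcNAc transporter Slc35a3 (-0.54 ± 0.11, edgeR adjusted p = 0.0244). For that comparison DESeq2 called 6 donor genes lower and 0 higher, and limma-voom 3 lower and 0 higher.

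Enzymes of the same families outside the set, 45 listed and 21 tested, had no call in any comparison of Ehf IKO by edgeR, DESeq2 or limma-voom. Against both controls 13 of the 21 were higher, with 2 higher and 0 lower at an unadjusted p under 0.05. Of 34 genes of N-glycan assembly and branching none was called by any of the 3 tools either, and 20 were lower with a median of -0.03. At an unadjusted p under 0.05, 1 was lower and 0 higher.

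Goblet cell genes, which mark the main secretors of these glycans, moved in both directions. Of 20 in the list, 3 fell against both controls, namely the transcription factors Spdef (-0.92 ± 0.18) and Creb3l1 (-0.67 ± 0.14) and the stress sensor Ern2 (-0.41 ± 0.09), with edgeR adjusted p of 0.0189, 0.026 and 0.0344. Zg16, a mucus lectin, rose by 0.80 ± 0.12 and Spink4 by 0.75 ± 0.17 on the log2 scale (edgeR adjusted p = 0.00242 and 0.0385). Against Control TMX alone edgeR called the same 3 lower and the same 2 higher. Against Control OIL alone edgeR called 0 lower (Spdef, adjusted p = 0.0616) and 2 higher, Zg16 and Bcas1. The summed level of the list was 27140 to 38140 CPM in Ehf IKO, 36460 to 44090 CPM in Control TMX and 22850 to 41910 CPM in Control OIL. Muc2, the main carrier of colonic O-glycans, averaged 12270 ± 1193 CPM in Ehf IKO, 20220 ± 2155 CPM in Control TMX and 15780 ± 4439 CPM in Control OIL (SD, n = 4 each). Its log2 fold change of -0.54 ± 0.16 against both controls was not called (edgeR adjusted p = 0.115), nor was the -0.72 ± 0.18 against Control TMX alone (edgeR adjusted p = 0.0823). Muc2 in every Ehf IKO library (10510 to 13130 CPM) was below every Control TMX library (17650 to 22850 CPM). It lay within the Control OIL range (10180 to 20700 CPM). With the goblet score as a covariate the set had 5 falls and 1 rise against both controls. Over all genes that fit had somewhat more falls and fewer rises than the main fit. Markers of other secretory and sensory epithelial cells also changed against both controls. Reg4, of deep crypt secretory cells, rose by 2.03 ± 0.23 on the log2 scale (edgeR adjusted p = 0.000745), and 4 of 6 genes of that list were higher. Chga, of enteroendocrine cells, fell by 0.76 ± 0.12 (edgeR adjusted p = 0.00327), and 8 of 9 genes of that list were lower. Dclk1, of tuft cells, rose by 0.72 ± 0.16 (edgeR adjusted p = 0.0384), and 8 of 8 genes of that list were higher. With the controls taken singly, edgeR called Reg4 against each, Chga only against Control TMX, and Dclk1 against neither. Summed levels in Ehf IKO, Control TMX and Control OIL were 1315 to 1612, 818.4 to 1411 and 936.7 to 1565 CPM for the deep crypt list. They were at most 207.9, 247.8 to 304.6 and 193.5 to 313.1 CPM for the enteroendocrine list, and 83.39 to 141.7, 81.39 to 89.75 and 64.87 to 107.2 CPM for the tuft list. The part of the share of any of these cells in the falls was not tested.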

How the data were processed

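RNA-seq of colonic epithelium from 12 mice was used, 1 library per mouse. Per the file headers, the authors deposited read counts for each gene symbol, which featureCounts 1.6.1 took over Ensembl release 98 exons (GRCm38) with strand setting 0. Multi-mapping reads and reads overlapping several genes did not count. STAR was the aligner per the submitters' processing notes, in a version not given in the sources used here.

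Groups and replicate numbers came from the labels, and sex from Xist and Y-linked genes. In R 4.3.3, edgeR 4.0.16 (TMM factors, filterByExpr by group, 1 robust quasi-likelihood fit, 9 residual degrees of freedom) tested 15743 genes with Benjamini-Hochberg adjustment. The biological coefficient of variation was 18.3%. CPM and CPM per kilobase of exon were computed from the counts with TMM-scaled totals. Marker scores are means of centred log2 CPM with a prior count of 2. On simulated counts of this design, 80% of genes changed 2-fold and 98% of those changed 4-fold were recovered against both controls, with 11 false calls among 15527 genes. Promoter windows came from RefSeq, GRCm38.p6.

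The 43 genes and the lists were chosen with earlier results of these data known. Values in every library are given for called genes, the most abundant gene per kilobase of each step, genes under 50 counts in all and neighbours within 200000 bases. Genes near the call threshold, B3gnt7 and the other genes with group means were named after their values were seen. Alternatives were DESeq2 size factors, DESeq2 1.42.0, limma-voom (limma 3.58.1), no filter or a stricter one (mean log2 CPM of 1 or more), no robust setting, the compared groups alone, a replicate block, a sex term, 3 marker scores, library sizes without mitochondrial and dominant genes, and leaving out each library.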

Additional observations from a re-analysis of the deposited data

Results flagged for a closer look

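In groups of 4 libraries, a library was singled out when its gap to the nearest other library, as a share of the group's range, exceeded Dixon's 95% critical value, which chance gives in about 1 in 20 groups. Of 117 groups examined (39 genes in 3 groups), 8 held such a library, where chance would give about 5.8.

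Ehf IKO replicate 4 was singled out for 4 genes. It was the highest of its group for B3gnt5 (94.7 CPM), Chst4 (48.1 CPM) and Gal3st2 (11.7 CPM), and the lowest for St3gal1 (17.9 CPM). For Gal3st2, Control OIL replicate 4 was also far above the rest of its group, at 11.1 CPM.

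In Control TMX, replicate 1 was low for Galnt10 (117 CPM) and replicate 2 was high for B3gnt6 (28.9 CPM). In Control OIL, replicate 1 was high for B4galt4 (50.9 CPM). Without that library B4galt4 was still called lower in Ehf IKO against both controls and against Control OIL.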

How the results depend on the processing

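No direction of a gene called in any comparison turned under the alternatives run, and all 5 genes that fell kept a log2 fold change below 0. St6galnac6 was called under each of them in the 3 comparisons of Ehf IKO. Against both controls (4 fell, 0 rose), the falls numbered 7 with no filter, 7 with sex as a term, 1 with the fibroblast score and 7 with the colonocyte score, and 3 to 5 when 1 library was left out. The rises numbered 1 with no filter, 1 by DESeq2, 1 with sex as a term and 1 with the goblet score, and 0 to 1 when 1 library was left out (1 without Ehf IKO replicate 4 or Control TMX replicate 1). Falls over all genes were also more numerous than in the main fit with no filter, a sex term or the colonocyte score. With the fibroblast score they were fewer. Rises over all genes were more numerous with no filter and by DESeq2, and fewer with a sex term and with the goblet score. Against Control TMX (2 fell, 0 rose), the falls numbered 6 with no filter, 4 by DESeq2, 1 by limma-voom, 4 with the compared groups alone, 4 with sex as a term, 4 with the goblet score, 1 with the fibroblast score and 6 with the colonocyte score, and 1 to 3 when 1 library was left out (1 without Ehf IKO replicate 3 or Control TMX replicate 2 or 3). The rises were 1 with the colonocyte score and 0 when 1 library was left out. With no filter, DESeq2, the compared groups alone, the sex term, the goblet score or the colonocyte score, falls over all genes there increased too. They were fewer than in the main fit by limma-voom and with the fibroblast score. Rises over all genes there were also more numerous with the colonocyte score. Against Control OIL (5 fell, 0 rose), the falls numbered 8 with no filter and 1 with the fibroblast score, and 3 to 7 when 1 library was left out (3 without Ehf IKO replicate 1, 2 or 3 or Control OIL replicate 1). The rises were 1 with no filter, 1 by DESeq2 and 1 with the goblet score, and 0 to 1 when 1 library was left out (1 without Ehf IKO replicate 4). Of all genes, 120 fell and 145 rose in the main fit, and 289 and 435 with no filter. The goblet score gave 123 and 104, and the fibroblast score 13 and 8. With 1 library left out, 50 to 258 fell and 53 to 453 rose. In Control TMX against Control OIL (0 and 0), falls numbered 3 with no filter and 2 by DESeq2, rises 2 with no filter and 1 by DESeq2, and each 0 to 1 when 1 library was left out (a fall without Ehf IKO replicate 4 and a rise without Control OIL replicate 2). Of all genes, 7 fell and 6 rose in that main fit, 171 and 270 with no filter, and 75 and 122 by DESeq2. Without Ehf IKO replicate 4 it was 23 and 44, and without Control OIL replicate 2 it was 42 and 24. The cause was not tested.

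The labels do not say what the replicate numbers mark, and same-numbered libraries did not all deviate together. Correlations of same-numbered libraries ran from -0.406 to 0.405 over 12 pairs (median 0.0864), those of other libraries from -0.35 to 0.372. The 4 pairs of Ehf IKO with Control TMX were all above 0 (0.0998 to 0.405), and the numbers also followed sex. With the number as a replicate block, 3 genes of the set fell against both controls (71 of all genes), 1 against Control TMX (40) and 3 against Control OIL (81). St6galnac6 was at -1.01 against both controls (edgeR adjusted p = 0.000566). The calls lost under the block were A4gnt against Control TMX (edgeR adjusted p = 0.0601), Galnt12 against both controls (0.119) and Control OIL (0.078), and Fut2 against Control OIL (0.0645).

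With 4 mice a group, genes of a few CPM have wide intervals, and the 4 genes under 50 counts in all were left out by the filter and tested only with no filter. On simulated counts, 71% of genes changed 2-fold were recovered against Control TMX and 75% against Control OIL.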
